A study of Homo sapiens with 24 samples.

Results

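Macrophage-like THP-1 cells that had been exposed to DCVC for 24 h, the 6 libraries of the DCVC group, were compared with the 6 libraries of the untreated Control group, which makes 12 of the 24 libraries of the series. THP-1 is an established human monocytic leukaemia line. All cells were first differentiated with the phorbol ester PMA at 100 nM for 24 h. Control cells then received medium only and DCVC cells 5 µM S-(1,2-dichlorovinyl)-L-cysteine for 24 h, and the libraries of each group carry the letters A to F. The 6 LPS libraries, of cells given 100 ng/mL lipopolysaccharide for 4 h, and the 6 DCVC_LPS libraries, of cells given DCVC and then LPS, enter where the DCVC change is set beside that in stimulated cells. The genes described are the 13900 of 38735 named genes with a mean of at least 10 normalized counts over the 24 libraries. Normalized counts are reads divided by a factor for each library. THP-1 is 1 leukaemia line, and no label names a separate culture for each of the 6 libraries in a group. The spread behind each p-value is therefore that of these samples and may be technical. Libraries of the letters A and B, C and D, and E and F also resembled each other, so the 6 may not be independent.

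DCVC is a cysteine conjugate formed when the solvent trichloroethylene is joined to glutathione and trimmed, and cysteine conjugate beta-lyases can cleave it to reactive products that attack thiols. Reactive electrophiles modify cysteines of KEAP1, which otherwise hands the transcription factor NRF2 to the proteasome, and NRF2 with a small MAF partner then acts at antioxidant response elements of genes for glutathione, thioredoxin, NADPH, quinone and iron metabolism. PMA activates protein kinase C, stops division of THP-1 cells and turns them into adherent cells with integrins, matrix proteins, phagocytic receptors and lysosomes of macrophages.

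Control libraries held 19675823 to 27986524 reads in genes with a name and DCVC libraries 18478618 to 22015664. Normalized totals were 21135356 ± 563705 (mean ± SD, n = 6) in Control and 17774466 ± 305501 in DCVC, so the deposited scale does not set the totals equal. Between 17765 and 18629 genes had a read in a Control library and between 18567 and 19155 in a DCVC library. The summed level of 20 myeloid markers ran from 202225 to 243219 normalized counts in Control and from 138319 to 155551 in DCVC, and 3 of them rose and 14 fell. Summed T cell, epithelial and erythroid markers reached at most 36.2 normalized counts in the 12 libraries, with CD2, KRT5 and HBB at 0. B cell markers ran from 43.6 to 68.8 in Control and from 68.4 to 107.6 in DCVC, fibroblast markers from 339 to 394 and from 189 to 212 (LUM at 0), NK cell markers from 160.2 to 294 and from 123 to 183, and endothelial markers, mostly PECAM1, which macrophages also express, from 4566 to 7490 and from 2117 to 2954. Within these sets PDGFRB, NKG7, KDR and VWF rose, while COL1A1, PDGFRA, GNLY, PECAM1 and TEK fell. CD68, a macrophage marker, was listed at 1.52 to 9.47 normalized counts in Control and 8.92 to 25.9 in DCVC, and 85.8% of its exon bases in GENCODE 29 lie in exons of another gene, AC016876.2, so its level is uncertain.

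DCVC was followed by changes in 8298 of the 13900 genes, called at a Benjamini-Hochberg adjusted p under 0.05 in limma. Of all tested genes 3820 rose (27.5%) and 4478 fell (32.2%). At least 2-fold changes were found in 855 raised genes (6.15%) and 1487 lowered genes (10.7%), and the 6 values of each group did not overlap in 5069 genes (36.5%), among them 715 of the 855 and 1189 of the 1487. Changes of at least 4-fold comprised 220 rises and 373 falls, and changes of at least 8-fold 48 rises and 106 falls. With every library rescaled to the same total, a step that shifts the median gene's log2 change by 0.25 (from -0.03 to 0.22), 6412 genes rose (46.1%) and 2790 fell (20.1%). Counts under equal totals therefore stand beside those of each gene list below. Each list is to be read against these shares of all tested genes, and counts near them do not set a list apart. In bulk RNA, fewer cells of a kind and less RNA per cell cannot be told apart.

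**Figure D1:**
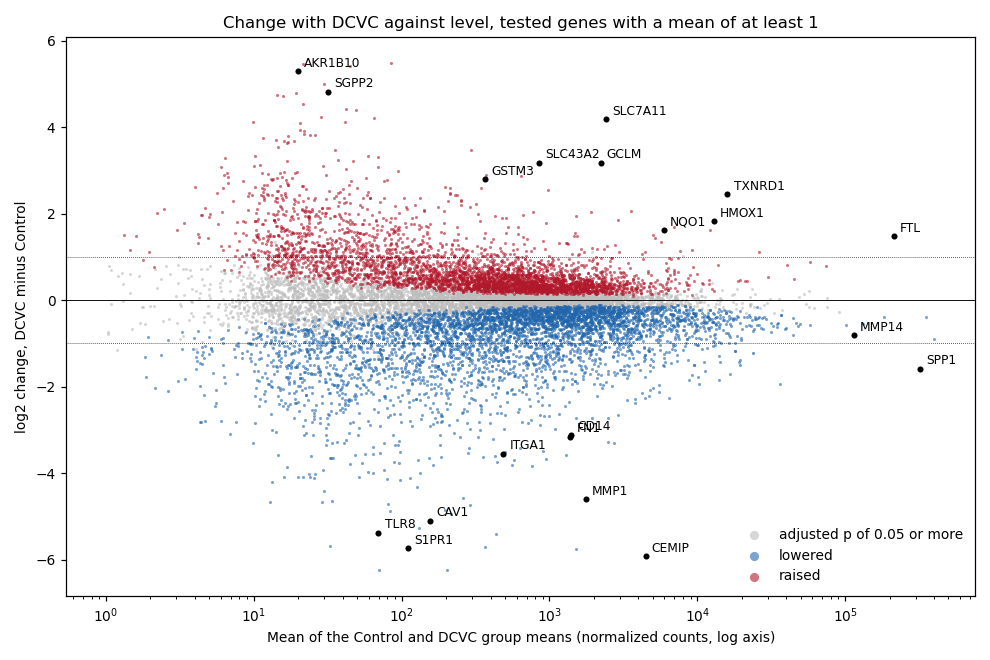
Log2 change in DCVC minus Control (y axis) against the mean of both group means in normalized counts (x axis, log scale) for tested genes with a mean of at least 1; each point is a gene, red where raised, blue where lowered and grey where the adjusted p was 0.05 or more, and dotted lines mark 2-fold. FTL and TXNRD1 are raised at high levels, and SPP1 and MMP14 are lowered at high levels.

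Large rises were found among genes of cystine import and glutathione synthesis. SLC7A11 (chromosome 4, 138164097 to 138242349, minus strand), the cystine carrier of system xc-, ran from 99.5 to 697 in Control (median 240.4) and from 3248 to 5445 in DCVC (median 4952). GCLM (chromosome 1, 93885205 to 93909456, minus strand), the modifier subunit of glutamate-cysteine ligase, ran from 384 to 516 in Control (median 449) and from 3855 to 4157 in DCVC (median 3979). All DCVC libraries lay above all Control libraries for both genes, with log2 changes of 4.18 ± 0.31 and 3.18 ± 0.10, while the Control values of SLC7A11 spread far more widely than those of GCLM. GCLC, the catalytic subunit of the same ligase, ran from 1536 to 5132 in Control (median 2362) and from 1948 to 2392 in DCVC (median 2284), and its change did not pass the test (log2 change -0.20 ± 0.20, adjusted p = 0.385). By letter, GCLC went from 3728 to 2322 in A and from 5132 to 2392 in B but from 1697 to 1948 in E and from 1536 to 2114 in F, and in the letters A and B alone it fell (log2 change -0.89, adjusted p = 3.06e-06). GSR (chromosome 8, 30678061 to 30727999, minus strand), which returns oxidized glutathione to its reduced form, ran from 2170 to 3192 in Control (median 2546) and from 6768 to 7985 in DCVC (median 7446). The GSR groups did not overlap (log2 change 1.50 ± 0.08, adjusted p = 4.58e-13). SLC3A2, the heavy chain that carries SLC7A11 and other amino acid carriers to the membrane, rose by 0.67 ± 0.08. OPLAH, which recovers glutamate from 5-oxoproline, fell by 1.30 ± 0.07, and CBS, the first enzyme of transsulfuration, fell by 1.37 ± 0.15 on the log2 scale. In the list of cystine import and glutathione synthesis 8 of 14 tested members rose and 4 fell, with a median log2 change of 0.29 (9, 4 and 0.54 under equal totals).

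Enzymes that use glutathione parted into rises and falls. GSTM3 (chromosome 1, 109733932 to 109741038, minus strand), a glutathione S-transferase of the mu class, ran from 70.0 to 133 in Control (median 84.4) and from 583 to 772 in DCVC (median 600.5). Its groups did not overlap (log2 change 2.79 ± 0.16, adjusted p = 7.73e-13). MGST1, a membrane-bound transferase, rose from 322 to 907 mean normalized counts (log2 change 1.53 ± 0.14, adjusted p = 1.21e-09), and GLRX, a glutaredoxin that removes glutathione from protein thiols, from 292 to 704 (log2 change 1.31 ± 0.19, adjusted p = 3.51e-06). GPX3, the secreted glutathione peroxidase, rose from a low level (from 4.2 to 12.9 in Control (median 7.72) and from 25.4 to 40.3 in DCVC (median 31.4); log2 change 2.00 ± 0.23, adjusted p = 6.64e-08). The abundant peroxidases went the other way: GPX1, which reduces hydrogen peroxide, ran from 23703 to 36466 in Control (median 29143) and from 16202 to 19823 in DCVC (median 17561). All DCVC values of GPX1 were below all Control values (log2 change -0.72 ± 0.10, adjusted p = 2.58e-06). GPX4, which reduces lipid hydroperoxides, fell by 0.48 ± 0.09, and GSTP1, the pi class transferase, fell by 0.52 ± 0.09 on the log2 scale, both without overlap between groups. In this list 11 of 21 tested members rose and 8 fell, with a median log2 change of 0.23 (12, 5 and 0.48 under equal totals).

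In the thioredoxin system the reductase led. TXNRD1 (chromosome 12, 104215779 to 104350305, plus strand), the cytosolic thioredoxin reductase, ran from 3959 to 5949 in Control (median 4983) and from 22928 to 29558 in DCVC (median 27972). All DCVC libraries were above all Control libraries (log2 change 2.45 ± 0.09, adjusted p = 1.02e-16). SRXN1, the sulfiredoxin that repairs overoxidized peroxiredoxins, ran from 70.6 to 199.8 in Control (median 106) and from 428 to 588 in DCVC (median 551), without overlap (log2 change 2.22 ± 0.17, adjusted p = 7.27e-11). In GENCODE 29, 85.0% of SRXN1 exon bases lie in exons of AL121758.1 on the same strand, so its level is uncertain. TXN itself rose by 0.96 ± 0.14 and PRDX1, an abundant peroxiredoxin, by 0.70 ± 0.06, whereas PRDX6, which also has phospholipase activity, fell by 0.59 ± 0.10 and MSRA, a methionine sulfoxide reductase, fell by 1.17 ± 0.08 on the log2 scale. In the list 8 of 21 tested members rose and 8 fell, with a median log2 change of -0.05 (10, 4 and 0.20 under equal totals), so the median takes the other sign on that scale.

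Both reductases draw on NADPH, and PGD, TALDO1 and TKT of the pentose phosphate pathway and ME1 rose. PGD (chromosome 1, 10398592 to 10420144, plus strand), which makes NADPH in that pathway, ran from 4766 to 7517 in Control (median 5770) and from 16867 to 20101 in DCVC (median 17911). TALDO1, a transaldolase of its non-oxidative part, ran from 3028 to 3805 in Control (median 3196) and from 9164 to 12135 in DCVC (median 10575). Neither gene's groups overlapped, with log2 changes of 1.63 ± 0.08 and 1.69 ± 0.07. TKT, a transketolase, rose by 1.35 ± 0.07, and ME1, the cytosolic malic enzyme, by 1.13 ± 0.19. H6PD, which makes NADPH inside the endoplasmic reticulum, fell from 3646 to 2243 mean normalized counts (log2 change -0.70 ± 0.06, adjusted p = 7.32e-10). Over this list 8 of 16 tested members rose and 6 fell, with a median log2 change of 0.28 (10, 2 and 0.53 under equal totals).

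Among quinone, carbonyl and aldehyde enzymes, 11 of 21 tested members rose and 1 fell, with a median log2 change of 0.67 (16, 0 and 0.92 under equal totals). NQO1 (chromosome 16, 69706996 to 69726951, minus strand), which reduces quinones by an electron pair at a time, ran from 2467 to 3961 in Control (median 2539) and from 8578 to 9037 in DCVC (median 8936). Its DCVC values were all above its Control values (log2 change 1.61 ± 0.13, adjusted p = 3.24e-10). AKR1B10, an aldo-keto reductase, had no read in any Control library and 268 reads over the 6 DCVC libraries, at least 85-fold higher against a floor of 3 reads over the Control group, an estimate that covers counting error only. AKR1C1, another aldo-keto reductase with near-identical copies, ran from 0.905 to 4.2 in Control (median 2.8) and from 9.81 to 35.2 in DCVC (median 26.5), so reads may be split between copies. EPHX1, the microsomal epoxide hydrolase, rose by 1.15 ± 0.11, ALDH3A2, a fatty aldehyde dehydrogenase, by 0.94 ± 0.09, and PTGR1, which reduces reactive alkenals, by 0.92 ± 0.13. With the letters as a replicate block, 12 members rose and 3 fell.

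Both ferritin chains and some heme genes rose, at high levels for FTL, FTH1 and HMOX1. FTL (chromosome 19, 48965301 to 48966878, plus strand), the light chain of the iron store ferritin, ran from 93968 to 128629 in Control (median 115310) and from 263529 to 370310 in DCVC (median 307713). The groups did not overlap, and the mean rose from 112997 to 312602 (log2 change 1.47 ± 0.09, adjusted p = 2.24e-12), the largest increase in mean normalized counts among the called genes without overlap. FTH1, the heavy chain, rose by 0.79 ± 0.15 with overlapping groups (from 33560 to 77065 in Control (median 60302) and from 73869 to 117179 in DCVC (median 96183)). HMOX1, which opens the heme ring and frees its iron, ran from 4587 to 7268 in Control (median 5464) and from 17472 to 23852 in DCVC (median 19172). SLC48A1, which carries heme out of lysosomes, ran from 166 to 229 in Control (median 208) and from 636 to 949 in DCVC (median 715) without overlap (log2 change 1.89 ± 0.11, adjusted p = 3.92e-13), and BLVRA, which reduces the biliverdin that HMOX1 makes, rose by 0.56 ± 0.13. STEAP3, the endosomal ferrireductase, ran from 313 to 613 in Control (median 505) and from 60.0 to 121 in DCVC (median 67.8), all DCVC values being lower (log2 change -2.56 ± 0.25, adjusted p = 4.82e-09), and TFRC, the transferrin receptor, fell by 0.59 ± 0.12 on the log2 scale. In all, 9 of 23 tested members rose and 6 fell, with a median log2 change of 0.11 (11, 3 and 0.36 under equal totals).

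The transcript of NRF2 itself moved little. NFE2L2, the gene of NRF2, ran from 2661 to 3410 in Control (median 3109) and from 2642 to 3328 in DCVC (median 2943). Its change did not pass the test on the deposited scale (log2 change -0.07 ± 0.07, adjusted p = 0.354). Under equal totals it rose (log2 change 0.18, adjusted p = 0.0205), and in the letters A and B alone it fell (log2 change -0.22, adjusted p = 0.0145). KEAP1 (chromosome 19, 10486120 to 10503741, minus strand) ran from 1642 to 2000 in Control (median 1738) and from 3232 to 3771 in DCVC (median 3423). The KEAP1 groups did not overlap (log2 change 0.98 ± 0.05, adjusted p = 3.09e-13). MAFG, a small MAF partner, rose by 0.76 ± 0.06, and SQSTM1, an autophagy receptor that binds KEAP1, by 0.82 ± 0.13. BACH1, a repressor of HMOX1, fell by 0.25 ± 0.11 (adjusted p = 0.044), a call that was lost under equal totals (log2 change -0.00, adjusted p = 0.985), in edgeR, with no filter, in the fit of the 12 libraries and without any 1 of the Control libraries C to E or the DCVC libraries A, B, E and F (adjusted p from 0.00477 to 0.133 over 18 settings that left out libraries). BACH2, a related repressor, ran from 76 to 204 in Control (median 145) and from 240.3 to 400.5 in DCVC (median 324), all DCVC values being higher, and NFE2L3, an NRF2 relative, fell by 1.42 ± 0.16 on the log2 scale. Among NRF2, its partners and regulators 9 of 16 tested members rose and 4 fell, with a median log2 change of 0.22 (11, 3 and 0.47 under equal totals).

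**Figure D2:**
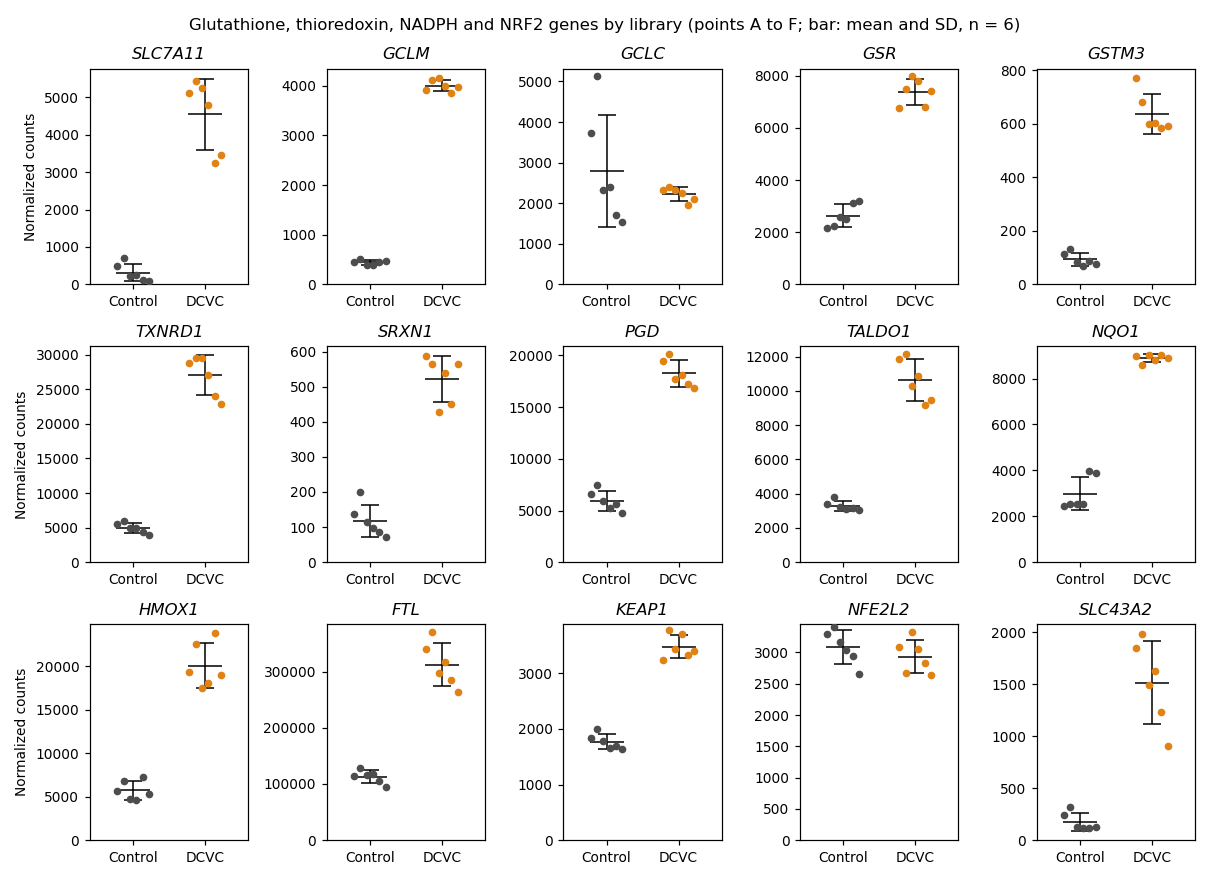
Normalized counts (y axis, linear) of 15 genes in each library of Control and DCVC (x axis); points are the libraries A to F and bars the mean and SD (n = 6). Apart from GCLC and NFE2L2, the groups of every gene shown do not overlap, and DCVC is higher.

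The core of the antioxidant response element, TGACNNNGC on either strand, was looked for in RefSeq promoters of GRCh38.p14, from 250 bases before to 50 after the start, which were found for 10687 of the 13900 genes. The 150 bases before the start are shown for 4 genes of the raised redox, transport and protease groups and for GSTP1, which fell, to show where the core lies, with matches in capitals. These genes were picked because they hold a match, which most promoters of raised redox and efflux members did not (shares below). A match to the other strand appears as the reverse complement of the core.
GCLM (chr1:93909431-93909580, minus strand): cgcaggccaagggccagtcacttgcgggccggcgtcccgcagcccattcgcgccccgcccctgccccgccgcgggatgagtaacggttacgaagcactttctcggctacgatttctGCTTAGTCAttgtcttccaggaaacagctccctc
TXNRD1 (chr12:104215629-104215778, plus strand): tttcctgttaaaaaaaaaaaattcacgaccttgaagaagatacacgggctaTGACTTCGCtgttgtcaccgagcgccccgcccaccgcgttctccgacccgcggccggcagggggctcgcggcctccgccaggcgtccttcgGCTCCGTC
SLC3A2 (chr11:62881549-62881698, plus strand): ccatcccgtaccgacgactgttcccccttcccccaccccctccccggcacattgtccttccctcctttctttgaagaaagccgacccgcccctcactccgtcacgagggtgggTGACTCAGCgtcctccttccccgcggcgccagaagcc
CTSL (chr9:87725969-87726118, plus strand): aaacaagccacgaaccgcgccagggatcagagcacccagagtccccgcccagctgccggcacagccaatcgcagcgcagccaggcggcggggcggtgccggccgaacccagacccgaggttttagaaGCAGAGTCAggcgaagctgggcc
GSTP1 (chr11:67583662-67583811, plus strand): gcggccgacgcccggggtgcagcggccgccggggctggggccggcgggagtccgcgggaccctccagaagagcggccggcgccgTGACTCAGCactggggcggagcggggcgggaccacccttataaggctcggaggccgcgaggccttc
The second TXNRD1 match runs past the start by 1 base. In SLC3A2 and GSTP1 the match reads TGACTCAGC, which also holds TGACTCA, the site of AP-1 factors. TGACNNNGC was present in 15.4% of all promoters, in 17% of those of genes raised at least 2-fold and in 12.4% of those lowered at least 2-fold. In the 8 redox and efflux lists it was present in 15.4% of promoters of raised members and in 13.8% of the others. TGACTCA, a motif added after the data were seen, was present in 3.23% of all promoters, 4.36% of those lowered at least 2-fold, 7.04% of those raised at least 2-fold and 11.6% (18 of 155) of those raised at least 4-fold. These shares describe the letters in this window only.

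Handling of cysteine conjugates was the next group, since DCVC is one. SLC43A2 (chromosome 17, 1569267 to 1628886, minus strand), a carrier of large neutral amino acids, ran from 114 to 323 in Control (median 127) and from 909 to 1981 in DCVC (median 1562). Every DCVC library was above every Control library (log2 change 3.18 ± 0.25, adjusted p = 1.19e-10). SLC7A5, another carrier of large neutral amino acids, ran from 4054 to 5391 in Control (median 4841) and from 1327 to 1610 in DCVC (median 1458), with all DCVC values lower (log2 change -1.71 ± 0.11, adjusted p = 2.22e-12). FMO4, a flavin monooxygenase, rose from 86.6 to 299.9 mean normalized counts (log2 change 1.79 ± 0.15, adjusted p = 5.2e-10). Among beta-lyases, KYAT1 ran from 22.1 to 32.6 in Control (median 27) and from 38.1 to 48 in DCVC (median 44.7) and rose (log2 change 0.68 ± 0.20, adjusted p = 0.00464). KYAT3 ran from 349.9 to 528 in Control (median 401) and from 283 to 384 in DCVC (median 325) and fell on the deposited scale (log2 change -0.34 ± 0.11, adjusted p = 0.00892), but not under equal totals (log2 change -0.09, adjusted p = 0.458). GGT1, a gamma-glutamyl transferase of the conjugate pathway with near copies, rose by 0.45 ± 0.09. Of the list 9 of 15 tested members rose and 4 fell, with a median log2 change of 0.45 (9, 3 and 0.70 under equal totals). Among 8 efflux pumps 3 rose and 3 fell (4 and 3 under equal totals): ABCC2, a conjugate exporter, rose from low counts (from 4.52 to 7.29 in Control (median 6.57) and from 22.1 to 33.2 in DCVC (median 25.7); log2 change 1.96 ± 0.22) and ABCC1, an exporter of glutathione conjugates, by 0.40 ± 0.08, while ABCB1, a drug efflux pump, fell by 1.40 ± 0.16 and ABCC4, a cyclic nucleotide exporter, fell by 0.94 ± 0.08 on the log2 scale.

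Most proteasome subunits rose by small amounts. Of 31 tested members 25 rose and 1, PSMA2, fell, with a median log2 change of 0.31 (30, 0 and 0.56 under equal totals), against 27.5% of all genes raised. With the letters as a replicate block, 25 rose and 2 fell. PSMB7, a catalytic subunit of the core, ran from 1306 to 1678 in Control (median 1468) and from 2281 to 2733 in DCVC (median 2406), and PSMD2, a subunit of the regulatory base, ran from 4248 to 5324 in Control (median 4724) and from 7525 to 8523 in DCVC (median 7765). The DCVC libraries of both lay above all Control libraries (log2 changes 0.74 ± 0.07 and 0.73 ± 0.06). PSMA3, a subunit of the outer ring, rose by 0.64 ± 0.06.

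Chaperones did not move as 1 group. HSPA6, a stress-inducible HSP70, ran from 3.79 to 21.3 in Control (median 10.1) and from 41.7 to 60.5 in DCVC (median 51) without overlap (log2 change 2.34 ± 0.29, adjusted p = 2.99e-07). HSPA1B, inducible and near-identical to HSPA1A, rose by 1.03 ± 0.13, BAG3, an HSP70 cochaperone, by 0.77 ± 0.07 and DNAJB4, an HSP40, by 1.03 ± 0.12. HSPA8, the constitutive HSP70, ran from 34512 to 53147 in Control (median 39059) and from 21625 to 31670 in DCVC (median 27746), all DCVC values being lower (log2 change -0.62 ± 0.14, adjusted p = 0.000558), and HSPB1, a small heat shock protein, fell by 1.16 ± 0.20 on the log2 scale. HSP90AA1 ran from 33745 to 36949 in Control (median 35414) and from 31226 to 41142 in DCVC (median 35000) and its change did not pass the test (log2 change 0.02 ± 0.07, adjusted p = 0.842) but did under equal totals (log2 change 0.27, adjusted p = 0.00154). Over the list 7 of 24 tested members rose and 7 fell, with a median log2 change of 0.01 (12, 2 and 0.26 under equal totals). Among all tested genes 27.5% rose and 32.2% fell. In the unfolded protein response 6 of 25 tested members rose and 7 fell, with a median log2 change of 0.08 (12, 1 and 0.33 under equal totals). Its abundant chaperone HSPA5 (BiP) ran from 13060 to 28397 in Control (median 17517) and from 14225 to 21110 in DCVC (median 15057) (adjusted p = 0.271; 0.0133 with the replicate block), DNAJB9, a co-chaperone of BiP, rose by 0.57 ± 0.11 and HERPUD1, which serves degradation of proteins of the endoplasmic reticulum, fell by 1.07 ± 0.07. With that block 10 members rose and 9 fell.

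Targets of ATF4, the factor induced when amino acids run short or the endoplasmic reticulum is stressed, fell more often than they rose: 4 of 21 tested members rose and 11 fell, with a median log2 change of -0.44 (7, 9 and -0.19 under equal totals). STC2, a secreted glycoprotein, ran from 107 to 238 in Control (median 167) and from 5.96 to 17.8 in DCVC (median 11.6). PHGDH, which opens serine synthesis, ran from 134 to 326 in Control (median 159.8) and from 43 to 90.7 in DCVC (median 69.8). Both were lower in every DCVC library (-3.74 ± 0.32 and -1.45 ± 0.21), as was MTHFD2, a mitochondrial folate enzyme (log2 change -1.22 ± 0.11). ATF4 itself ran from 5424 to 6757 in Control (median 6129) and from 3589 to 4547 in DCVC (median 4203) and fell (log2 change -0.53 ± 0.08, adjusted p = 9.18e-06). ATF3, a related stress factor, rose by 0.74 ± 0.17, and DDIT3 (CHOP) ran from 449.7 to 636 in Control (median 563) and from 526 to 693 in DCVC (median 587), with an adjusted p of 0.432 (0.009 under equal totals, log2 change 0.36). SLC7A11 and SLC3A2, which are on this list as well, were among its 4 rises. Of 19 cytosolic aminoacyl-tRNA synthetases 1, SARS1, rose and 6 fell (7 and 3 under equal totals; 2 and 10 with the replicate block), and AARS1, that of alanine, fell by 1.15 ± 0.08 on the log2 scale.

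Lysosomal genes split. GLA, the alpha-galactosidase, ran from 708 to 962 in Control (median 780.3) and from 2041 to 2525 in DCVC (median 2219). CTSL (chromosome 9, 87725519 to 87731393, plus strand), the cysteine protease cathepsin L, ran from 31906 to 45467 in Control (median 42164) and from 55392 to 87174 in DCVC (median 76775). Both were higher in every DCVC library (log2 changes 1.49 ± 0.07 and 0.87 ± 0.13). CTSH, an aminopeptidase of the cathepsin family, ran from 5803 to 10942 in Control (median 9728) and from 1903 to 2534 in DCVC (median 2209), and CTSC, which activates granule serine proteases, ran from 13698 to 24623 in Control (median 21534) and from 6423 to 9625 in DCVC (median 7901). Every DCVC value of these genes was below every Control value (log2 changes -1.97 ± 0.14 and -1.30 ± 0.15). ATP6V0D2, a proton pump subunit of osteoclasts and macrophages, fell by 2.39 ± 0.25 and TFEB, a regulator of lysosomal genes, fell by 0.57 ± 0.11 on the log2 scale. In the list 15 of 37 tested members rose and 12 fell, with a median log2 change of 0.08 (19, 7 and 0.32 under equal totals). Among autophagy genes 10 of 26 tested members rose and 7 fell, with a median log2 change of 0.01 (17, 4 and 0.26 under equal totals), with SQSTM1 the largest rise and ATG7, an enzyme of autophagosome formation, the largest fall (-0.67 ± 0.07).

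Most cytosolic ribosomal proteins fell on the deposited scale, where 0 of 74 rose and 64 fell (median log2 change -0.47), and less so under equal totals, where 1 rose and 33 fell (median -0.22). Mitochondrial ribosomal proteins had 34 of 75 raised and 6 lowered with a median of 0.17 (58, 1 and 0.42 under equal totals). RPL3, of the large cytosolic subunit, ran from 33917 to 43609 in Control (median 40216) and from 23221 to 29121 in DCVC (median 24543) (log2 change -0.61 ± 0.08, adjusted p = 2.74e-07), and MRPL3, 1 of the 6 mitochondrial members that fell, ran from 2389 to 2959 in Control (median 2843) and from 1842 to 2472 in DCVC (median 1961) (log2 change -0.42 ± 0.08, adjusted p = 4.88e-05; -0.17 and 0.0559 under equal totals). The elongation factor EEF1A1 ran from 324596 to 444681 in Control (median 420787) and from 266760 to 322897 in DCVC (median 309749) without overlap (log2 change -0.38 ± 0.11, adjusted p = 0.00381), but did not pass the test under equal totals (log2 change -0.13, adjusted p = 0.27). Nuclear subunits of the respiratory chain had 13 of 64 raised and 17 lowered on the deposited scale, and 34 raised and 2 lowered under equal totals, so their direction follows the scale. COX5B, a subunit of cytochrome c oxidase, had the largest fall among them (from 2820 to 5226 in Control (median 3597) and from 1754 to 2386 in DCVC (median 1947); log2 change -0.87 ± 0.13). Of 13 mitochondrially encoded transcripts 0 rose and 4 fell (0 and 0 under equal totals, 0 and 11 with the replicate block).

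In lipid metabolism, SQLE and FDFT1 of sterol synthesis rose and CD36 and LPL of lipid uptake fell. SQLE, the squalene epoxidase, ran from 7887 to 23344 in Control (median 17547) and from 18432 to 47496 in DCVC (median 37604) (log2 change 1.12 ± 0.23, adjusted p = 0.000204), and its groups overlapped. FDFT1, the squalene synthase, ran from 3225 to 4817 in Control (median 4513) and from 5025 to 10486 in DCVC (median 7517) without overlap (log2 change 0.86 ± 0.20, adjusted p = 0.000651). Of the sterol genes 7 of 24 tested members rose and 2 fell, with a median log2 change of 0.32 (13, 1 and 0.57 under equal totals), and with the replicate block 15 rose and 3 fell. FADS1, a fatty acid desaturase, rose by 1.02 ± 0.22. CD36, a receptor for oxidized lipoproteins and fatty acids, ran from 15385 to 27708 in Control (median 21927) and from 4966 to 7139 in DCVC (median 6111), and LPL, the lipoprotein lipase, ran from 18137 to 35791 in Control (median 27278) and from 6175 to 15337 in DCVC (median 10472). Both were lower in every DCVC library (log2 changes -1.85 ± 0.15 and -1.44 ± 0.23). Of the fatty acid genes 6 of 23 tested members rose and 10 fell, with a median log2 change of -0.20 (7, 3 and 0.05 under equal totals).

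Of glycolytic and hypoxia-responsive genes 6 of 29 tested members rose and 12 fell, with a median log2 change of -0.09 (11, 10 and 0.16 under equal totals), so falls outnumbered rises on the deposited scale only. SLC2A3, a high-affinity glucose transporter, ran from 373 to 558 in Control (median 479.9) and from 105 to 142 in DCVC (median 121), and PFKP, the platelet form of phosphofructokinase, ran from 1045 to 2465 in Control (median 1642) and from 511 to 904 in DCVC (median 716). Neither overlapped (log2 changes -1.92 ± 0.24 and -1.29 ± 0.21). HK3, the hexokinase of myeloid cells, fell by 1.97 ± 0.38 and PKM, the pyruvate kinase, fell by 0.65 ± 0.07 on the log2 scale, while ALDOC, an aldolase, rose from a low level (from 16.1 to 43.1 in Control (median 31.8) and from 68.7 to 134 in DCVC (median 109)). PC, which carboxylates pyruvate to oxaloacetate, ran from 1116 to 1737 in Control (median 1511) and from 265 to 348 in DCVC (median 316). It was the largest fall among the genes of pyruvate dehydrogenase and the citric acid cycle (log2 change -2.23 ± 0.11, adjusted p = 4.83e-14), of which 8 of 20 tested members rose and 5 fell, with a median log2 change of 0.14 (15, 2 and 0.39 under equal totals).

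**Figure D3:**
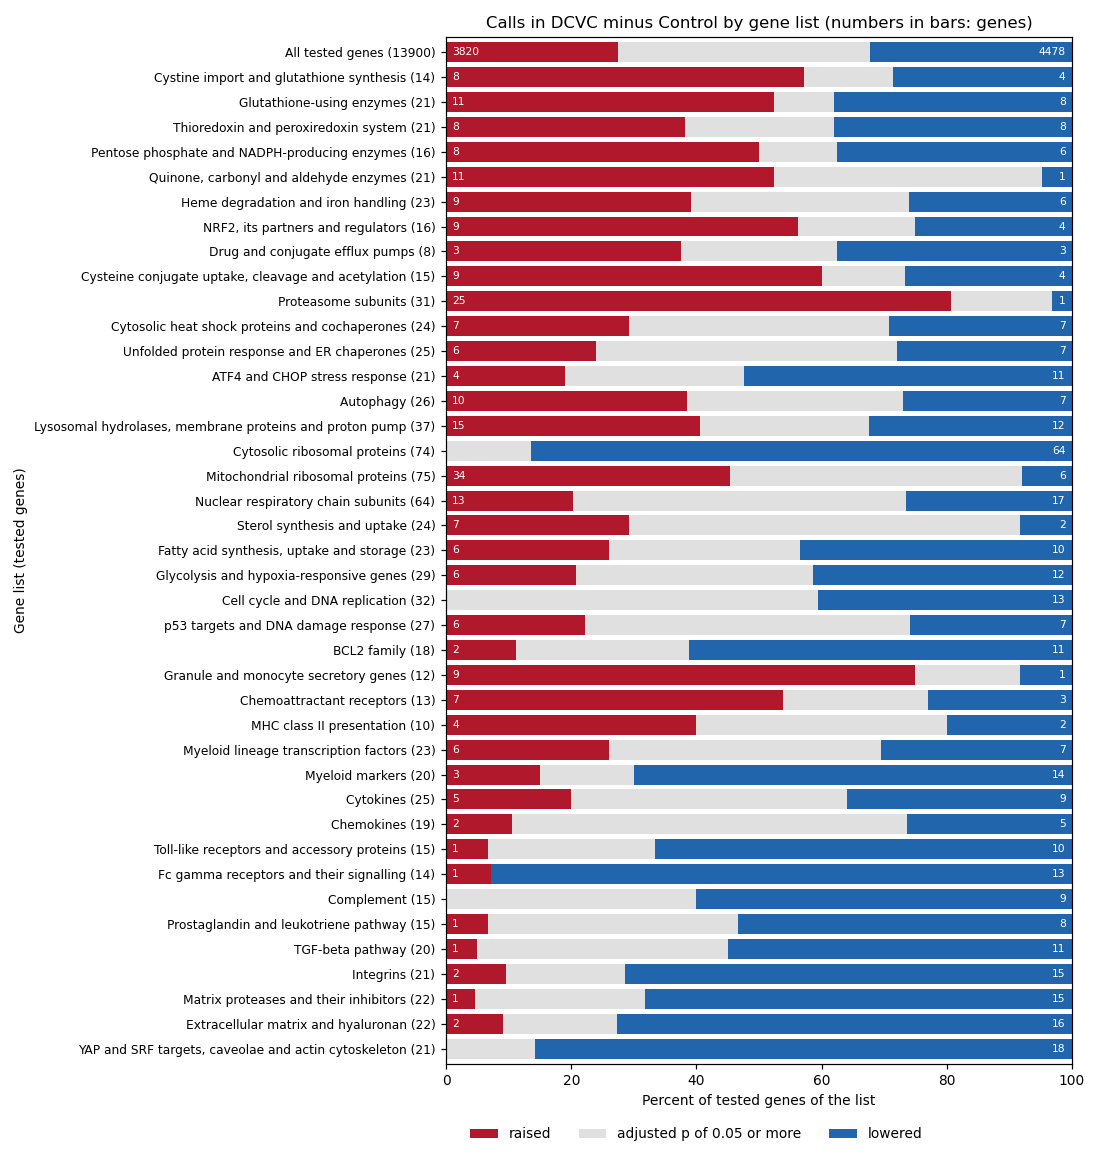
Percent of the tested genes of each list (y axis, with their number) that were raised (red), not past the test (grey) and lowered (blue) in DCVC minus Control on the deposited scale; numbers in the bars are genes and the top bar is all 13900 tested genes. Proteasome and granule lists are mostly red and the YAP and SRF, matrix, integrin and Fc gamma receptor lists mostly blue, while the respiratory chain list turns to 34 raised and 2 lowered under equal totals. The lists were chosen with earlier results of these data known.

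Among the lists, chosen with earlier results of these data known, the lowest median was that of YAP and SRF targets, caveolar and actin genes. The next was that of the matrix. This order is a description and not a test. In the YAP and SRF list 0 of 21 tested members rose and 18 fell, with a median log2 change of -1.38 (1, 14 and -1.14 under equal totals). CAV1 (chromosome 7, 116524785 to 116561184, plus strand), the scaffold of caveolae, ran from 194 to 449.8 in Control (median 264) and from 2.67 to 11.6 in DCVC (median 8.23). Every DCVC library was below every Control library (log2 change -5.10 ± 0.25, adjusted p = 5.49e-14). CAV2 and CAVIN1, the partners of CAV1 in the caveolar coat, changed by -1.55 ± 0.24 and -1.70 ± 0.16 on the log2 scale. VCL, which couples integrins to actin, ran from 2019 to 2617 in Control (median 2316) and from 564 to 691 in DCVC (median 637), and MYL9, a light chain of contractile myosin, ran from 1896 to 3434 in Control (median 2451) and from 449 to 999.9 in DCVC (median 485). Neither gene's groups overlapped (log2 changes -1.87 ± 0.09 and -2.10 ± 0.20). AMOTL2, an angiomotin that is a YAP target, fell by 3.65 ± 0.38 and AXL, a receptor kinase for apoptotic cell uptake, fell by 2.63 ± 0.28. FLNA, an actin crosslinker, ran from 656 to 812 in Control (median 794) and from 545 to 800.1 in DCVC (median 617), with an adjusted p of 0.229 (0.0205 with the replicate block).

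Most integrin chains fell. ITGA1 (chromosome 5, 52787896 to 52959210, plus strand), the alpha chain of a collagen receptor, ran from 791 to 1014 in Control (median 887) and from 60.5 to 93.7 in DCVC (median 75.7). The groups were far apart (log2 change -3.56 ± 0.11, adjusted p = 1.83e-17). ITGA6 and ITGA3, alpha chains of laminin receptors, fell: the change of ITGA6 was -1.68 ± 0.18, and ITGA3 went from 2925 to 958 mean normalized counts (adjusted p = 4.76e-06). ITGB2, the leukocyte beta chain and the most abundant integrin transcript, ran from 134284 to 177185 in Control (median 157435) and from 95317 to 114779 in DCVC (median 106394), and its alpha partner ITGAM (CD11b) ran from 5896 to 12295 in Control (median 8231) and from 1962 to 4981 in DCVC (median 3116). Both were lower in all DCVC libraries (log2 changes -0.56 ± 0.08 and -1.44 ± 0.25). ITGA10, a collagen receptor chain at a low level, rose (from 3.15 to 10.4 in Control (median 7.17) and from 13.7 to 57.8 in DCVC (median 37.5)). Of the integrins 2 of 21 tested members rose and 15 fell, with a median log2 change of -0.86 (3, 14 and -0.61 under equal totals).

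Matrix genes followed. CEMIP (chromosome 15, 80779343 to 80951776, plus strand), which serves hyaluronan breakdown, ran from 3071 to 13697 in Control (median 9118) and from 64.7 to 203 in DCVC (median 145). All 6 DCVC values were below all Control values (log2 change -5.92 ± 0.33, adjusted p = 4.18e-13). FN1, the fibronectin gene, ran from 1061 to 3228 in Control (median 2797) and from 199 to 411 in DCVC (median 230.0), and VCAN, a proteoglycan, ran from 247 to 1548 in Control (median 378) and from 29.3 to 204 in DCVC (median 50.05). Their log2 changes were -3.16 ± 0.31 and -3.01 ± 0.48, without overlap, and those of COL4A1 and COL4A2, the chains of basement membrane collagen IV, -1.93 ± 0.26 and -1.98 ± 0.33. COL10A1, a collagen of cartilage, fell by 5.70 ± 0.89 on the log2 scale. SPP1 (osteopontin; chromosome 4, 87975650 to 87983426, plus strand) ran from 278538 to 613840 in Control (median 535172) and from 95359 to 214457 in DCVC (median 169165), and its mean of 482748 ± 138306 in Control and 159842 ± 46858 in DCVC was the largest loss of counts among called genes without overlap. COL6A3, a chain of collagen VI, rose from low counts (from 11.4 to 30.3 in Control (median 21.8) and from 40.5 to 65.1 in DCVC (median 49.9)). In the matrix list 2 of 22 tested members rose and 16 fell, with a median log2 change of -1.16 (4, 13 and -0.92 under equal totals).

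Most matrix proteases and their inhibitors fell. MMP1 (chromosome 11, 102789920 to 102798160, minus strand), an interstitial collagenase, ran from 1613 to 6174 in Control (median 2446) and from 64 to 309.7 in DCVC (median 92.9), and MMP12, the macrophage elastase, ran from 70.6 to 416 in Control (median 217) and from 4.44 to 19.5 in DCVC (median 14.4). Both had no overlap (log2 changes -4.61 ± 0.43 and -3.99 ± 0.35). MMP8, a neutrophil collagenase, fell by 3.82 ± 0.77 on the log2 scale, and the membrane protease MMP14, the most abundant of the list, ran from 126149 to 172545 in Control (median 141087) and from 70517 to 93079 in DCVC (median 86404) (log2 change -0.81 ± 0.10, adjusted p = 1.39e-07). MMP9, a gelatinase, ran from 6620 to 101449 in Control (median 19251) and from 3336 to 25870 in DCVC (median 8637), and its change did not pass the test (log2 change -1.22 ± 0.70, adjusted p = 0.135) but did with the replicate block (adjusted p = 1.2e-06). TIMP3, a matrix-bound inhibitor, fell by 1.83 ± 0.28, and MMP19 was the member that rose (1.07 ± 0.34). Over the list 1 of 22 tested members rose and 15 fell, with a median log2 change of -0.84 (2, 13 and -0.59 under equal totals).

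TGF-beta signalling, which drives many matrix genes, had its receptor and mediator lowered. SMAD3, a transducer of the signal, ran from 1079 to 1284 in Control (median 1112) and from 104 to 215 in DCVC (median 163). TGFBR2, the ligand-binding receptor, ran from 3292 to 5674 in Control (median 4131) and from 1110 to 1723 in DCVC (median 1268). Both groups stood apart (log2 changes -2.81 ± 0.22 and -1.68 ± 0.16), and TGFBR1, the signalling receptor, fell by 0.77 ± 0.10 on the log2 scale. BAMBI, a pseudoreceptor that blocks the pathway, ran from 14.5 to 44.4 in Control (median 26.1) and from 46.4 to 58.6 in DCVC (median 50.5) and rose by 0.98 ± 0.23, the 1 rise on the deposited scale. Of this list 1 of 20 tested members rose and 11 fell, with a median log2 change of -0.46 (5, 10 and -0.21 under equal totals), and with the replicate block 2 rose and 11 fell. Of sphingosine 1-phosphate genes 4 of 19 tested members rose and 9 fell, with a median log2 change of -0.27 (6, 7 and -0.02 under equal totals). The receptors S1PR1 (from 54.6 to 320.3 in Control (median 284) and from 0 to 8.89 in DCVC (median 1.83)) and S1PR2 (from 556 to 1337 in Control (median 918) and from 201 to 445 in DCVC (median 245)) and the lyase SGPL1, which degrades the lipid, fell, with log2 changes of -5.74 ± 0.52, -1.73 ± 0.21 and -1.06 ± 0.12. SGPP2, a phosphatase of the lipid, ran from 0 to 2.84 in Control (median 1.49) and from 54.4 to 77.8 in DCVC (median 60.5) and rose (log2 change 4.81 ± 0.28, adjusted p = 6.23e-13).

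Most myeloid surface markers fell, while most granule genes rose. CD14 (chromosome 5, 140631728 to 140633701, minus strand), the coreceptor for LPS, ran from 1639 to 4443 in Control (median 2426) and from 171 to 487 in DCVC (median 267). The groups did not overlap (log2 change -3.11 ± 0.28, adjusted p = 1.08e-09). MSR1, a scavenger receptor, fell by 1.22 ± 0.17 on the log2 scale. CSF1R, the receptor for macrophage colony-stimulating factor, ran from 24582 to 40010 in Control (median 30741) and from 21539 to 28386 in DCVC (median 23252) (log2 change -0.40 ± 0.16), a call that was lost under equal totals (adjusted p = 0.398), with no filter (adjusted p = 0.0527) and without any 1 of the Control libraries A to C or the DCVC libraries C to F (adjusted p from 0.0159 to 0.0969 over 18 settings that left out libraries). Of the 20 markers 3 of 20 tested members rose and 14 fell, with a median log2 change of -0.74 (4, 11 and -0.49 under equal totals). ELANE (chromosome 19, 851014 to 856247, plus strand), neutrophil elastase, ran from 524 to 1150 in Control (median 722) and from 1284 to 2444 in DCVC (median 1994). CTSG (chromosome 14, 24573522 to 24576260, minus strand), cathepsin G, ran from 106 to 253 in Control (median 169) and from 302 to 913 in DCVC (median 728). Both were higher in all DCVC libraries (log2 changes 1.32 ± 0.20 and 1.95 ± 0.30), as was AZU1, an antimicrobial granule protein (0.96 ± 0.14). PRTN3, proteinase 3, rose by 0.87 ± 0.18, LYZ, lysozyme, by 1.17 ± 0.25 and SRGN, the core of granule proteoglycan, by 1.14 ± 0.10. S100A9, a calcium-binding protein of monocytes, was the 1 member that fell (-1.36 ± 0.52), a call that was lost under equal totals (adjusted p = 0.0684) and without Control E or F or DCVC A or B (adjusted p from 0.0106 to 0.0933 over 18 settings). In the granule list 9 of 12 tested members rose and 1 fell, with a median log2 change of 0.92 (10, 0 and 1.17 under equal totals).

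Lineage transcription factors had 6 of 23 raised and 7 lowered (9 and 5 under equal totals). All tested genes had similar shares on the deposited scale, 27.5% and 32.2%. IRF8, a monocyte lineage factor, ran from 1398 to 2536 in Control (median 1585) and from 486 to 760.0 in DCVC (median 629), and KLF4, a factor of monocyte differentiation, ran from 1209 to 2338 in Control (median 1795) and from 452 to 923 in DCVC (median 640.4). Both fell without overlap (log2 changes -1.52 ± 0.15 and -1.37 ± 0.19). BHLHE40, a factor of macrophage proliferation, rose by 1.41 ± 0.19 and CEBPA, a factor of the myeloid and granulocyte lineage, by 0.59 ± 0.15. SPI1 (PU.1), the master factor of myeloid cells, ran from 4895 to 10550 in Control (median 6163) and from 5249 to 8706 in DCVC (median 5738) and did not pass the test (log2 change -0.11 ± 0.16, adjusted p = 0.583).

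Most receptors and adaptors for antibody-coated particles fell. FCGR2B, the inhibitory Fc gamma receptor, ran from 33.3 to 80.7 in Control (median 40.8) and from 0 to 6.24 in DCVC (median 1.87). FCER1G, the signalling chain shared by activating receptors, ran from 5976 to 12797 in Control (median 8047) and from 2930 to 4590 in DCVC (median 3306). SYK (chromosome 9, 90801787 to 90898549, plus strand), the kinase that the chain recruits, ran from 2991 to 3569 in Control (median 3033) and from 1570 to 1688 in DCVC (median 1668). None of these overlapped between groups (log2 changes -4.11 ± 0.46, -1.25 ± 0.15 and -0.96 ± 0.07), and PTPN6, the phosphatase SHP-1, fell by 1.13 ± 0.14 on the log2 scale. FCGR2A, an activating receptor with near copies, went up (from 109 to 150.2 in Control (median 127) and from 296 to 328 in DCVC (median 309); log2 change 1.27 ± 0.16, adjusted p = 2.47e-07). Of the list 1 of 14 tested members rose and 13 fell, with a median log2 change of -0.88 (1, 11 and -0.63 under equal totals).

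Most Toll-like and complement receptors fell or did not pass the test. TLR8 and TLR7, sensors of single-stranded RNA in endosomes, ran from 89.6 to 219 in Control (median 128) and from 1.62 to 2.68 in DCVC (median 2.25) for TLR8 and from 79.9 to 157 in Control (median 91.5) and from 3.91 to 8.52 in DCVC (median 6.68) for TLR7. Neither overlapped (log2 changes -5.38 ± 0.28 and -3.76 ± 0.29). TLR4, the receptor for LPS, fell by 0.91 ± 0.14 (from 1503 to 2382 in Control (median 2245) and from 869 to 1374 in DCVC (median 1110)), and TLR5, the flagellin receptor, rose from low counts (from 1.71 to 6.63 in Control (median 2.56) and from 11.3 to 25.9 in DCVC (median 19.1)). Of Toll-like receptors and their accessory proteins 1 of 15 tested members rose and 10 fell, with a median log2 change of -0.62 (2, 8 and -0.37 under equal totals). VSIG4, a complement receptor of tissue macrophages, ran from 164 to 463 in Control (median 281) and from 19.5 to 66 in DCVC (median 48.8), and C3AR1, the C3a receptor, ran from 364 to 613 in Control (median 561) and from 122 to 163 in DCVC (median 136). Both were lower in all DCVC libraries (log2 changes -2.73 ± 0.36 and -1.88 ± 0.15), as was C5AR2, a decoy C5a receptor (-1.27 ± 0.21). In the complement list 0 of 15 tested members rose and 9 fell, with a median log2 change of -0.87 (1, 8 and -0.64 under equal totals).

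ALOX5 and its partners in leukotriene synthesis fell. ALOX5 (chromosome 10, 45374176 to 45446119, plus strand), the 5-lipoxygenase, ran from 399.6 to 710.3 in Control (median 502) and from 27.3 to 86.5 in DCVC (median 48.3). ALOX5AP, which presents arachidonic acid to it, fell by 1.81 ± 0.40, and LTA4H, which makes leukotriene B4, fell by 0.97 ± 0.11 on the log2 scale. ALOX5 did not overlap (log2 change -3.43 ± 0.29, adjusted p = 6.36e-10). PTGER2, a prostaglandin E2 receptor, ran from 51.6 to 148 in Control (median 105) and from 4.46 to 14.7 in DCVC (median 7.39) (log2 change -3.55 ± 0.23, adjusted p = 6.3e-12), and PTGS1, the constitutive cyclooxygenase, fell by 0.59 ± 0.12. Of this list 1 of 15 tested members rose and 8 fell, with a median log2 change of -0.47 (2, 8 and -0.22 under equal totals).

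**Figure D4:**
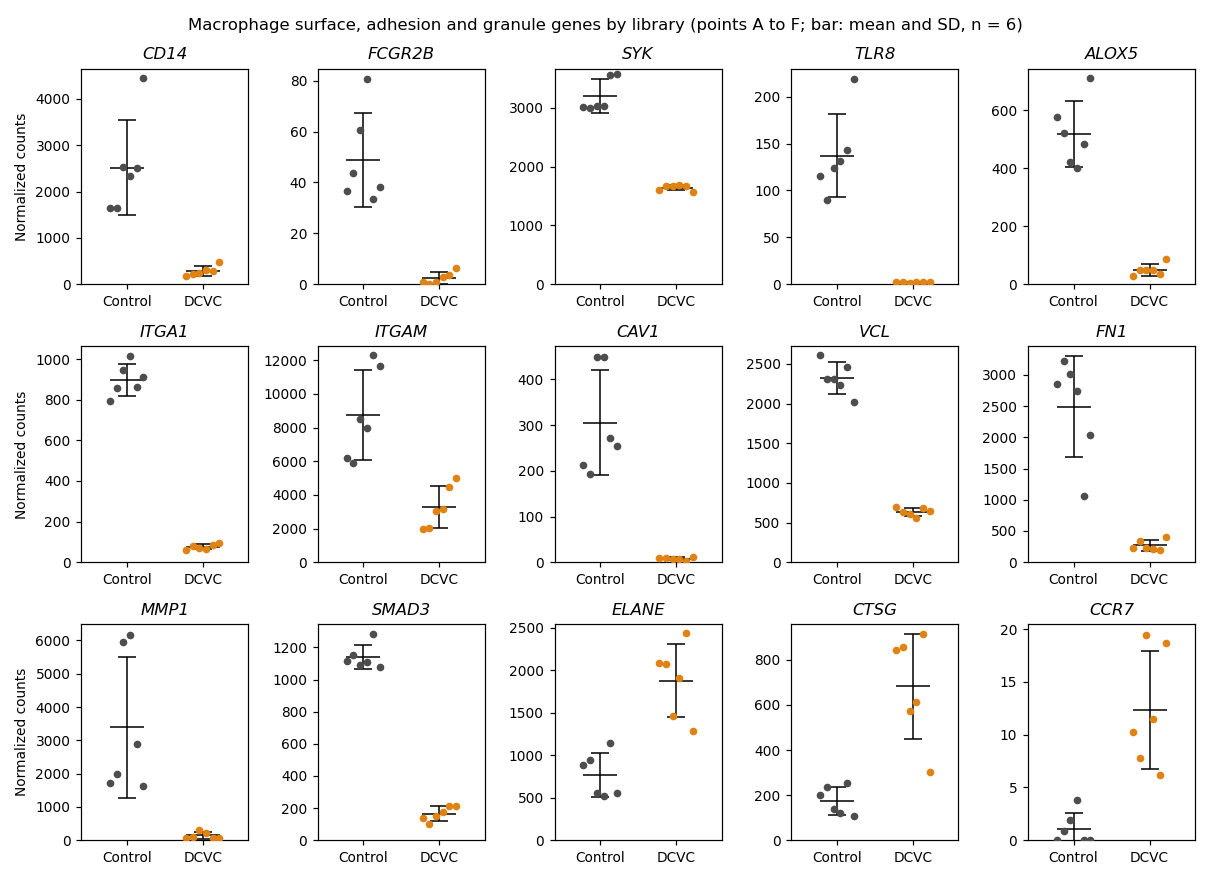
Normalized counts (y axis, linear) of 15 macrophage surface, adhesion, matrix and granule genes in each library of Control and DCVC (x axis); points are the libraries A to F and bars the mean and SD (n = 6). ELANE, CTSG and, from few reads, CCR7 are higher in all 6 DCVC libraries and the other 12 genes lower in all 6.

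Chemoattractant receptors moved both ways, and 7 of 13 tested members rose and 3 fell, with a median log2 change of 0.67 (8, 3 and 0.92 under equal totals). CX3CR1, the fractalkine receptor, ran from 215 to 936 in Control (median 389) and from 65.3 to 183 in DCVC (median 80.6) and fell without overlap (log2 change -2.08 ± 0.43, adjusted p = 0.000222). FPR2, a formyl peptide receptor, ran from 5.98 to 20.8 in Control (median 9.41) and from 33.2 to 54.3 in DCVC (median 47.2), and CCR7, the lymph node homing receptor, ran from 0 to 3.81 in Control (median 0.427) and from 6.22 to 19.5 in DCVC (median 10.9). Both rose without overlap (log2 changes 2.01 ± 0.36 and 2.85 ± 0.38). CCR7 had 8 reads in Control and 84 in DCVC, with means of 1.09 and 12.3 normalized counts. It reached the filter on the mean through the LPS and DCVC_LPS libraries (means 2759 and 54.65), so its rise is a rough value. Among cytokines 5 of 25 tested members rose and 9 fell, with a median log2 change of -0.35 (6, 6 and -0.16 under equal totals). IL1B, which encodes interleukin-1 beta, ran from 5906 to 21533 in Control (median 19341) and from 2164 to 7050 in DCVC (median 5792) (log2 change -1.65 ± 0.27, adjusted p = 1.12e-05), with overlapping groups, and TNF fell by 1.61 ± 0.35 from low counts. TNFSF9, a costimulatory ligand, and OSM, oncostatin M, rose by 1.53 ± 0.16 and 1.18 ± 0.26. Of 19 chemokines 2 rose and 5 fell (3 and 4 under equal totals, 3 and 8 with the replicate block), with log2 changes of -3.17 ± 0.31 for CCL20, a ligand of CCR6, and 1.97 ± 0.18 for CCL22, a ligand of CCR4.

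Several division genes fell and none rose on the deposited scale. CCNE2, a cyclin of the entry to DNA replication, ran from 327 to 1361 in Control (median 461) and from 100.6 to 280.1 in DCVC (median 167) (log2 change -1.63 ± 0.30, adjusted p = 5.32e-05). MKI67, a proliferation marker, ran from 145 to 932 in Control (median 247) and from 53.7 to 266 in DCVC (median 88.3) with overlap between groups (log2 change -1.43 ± 0.49, adjusted p = 0.0144), CDK1 fell from 166 to 43.8 mean normalized counts (adjusted p = 0.0127) and CCND1, cyclin D1, fell by 1.40 ± 0.24 on the log2 scale. Of the cell cycle list 0 of 32 tested members rose and 13 fell, with a median log2 change of -0.62 (1, 7 and -0.37 under equal totals), and with the replicate block 1 rose and 24 fell. Among all tested genes 27.5% rose and 32.2% fell (46.1% and 20.1% under equal totals). CDKN1A (p21), an inhibitor of division and a p53 target, ran from 14059 to 23440 in Control (median 21175) and from 14971 to 22496 in DCVC (median 19879) and did not pass the test (log2 change -0.06 ± 0.10, adjusted p = 0.644). Of p53 targets 6 of 27 tested members rose and 7 fell, with a median log2 change of 0.01 (12, 5 and 0.26 under equal totals), with PHLDA3, an AKT inhibitor, BTG2, an antiproliferative factor, and SESN1, a sestrin, at log2 changes of -2.09 ± 0.17, -1.49 ± 0.08 and -1.30 ± 0.14. In the BCL2 family 2 of 18 tested members rose and 11 fell, with a median log2 change of -0.46 (4, 9 and -0.21 under equal totals). BCL2A1, a survival member, ran from 833 to 1436 in Control (median 1210) and from 73.8 to 153 in DCVC (median 92.8) without overlap (log2 change -3.43 ± 0.16, adjusted p = 2.52e-14), BIK, a death-promoting member, fell by 1.61 ± 0.22, and the survival member BCL2L1 fell by 0.72 ± 0.09. MCL1, another survival member, fell by 0.36 ± 0.07 on the deposited scale and did not pass under equal totals (log2 change -0.11, adjusted p = 0.101).

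AHR, the receptor for dioxin-like compounds, and its target CYP1B1 fell, with log2 changes of -0.63 ± 0.17 and -1.33 ± 0.23, while CYP1A1, another target, rose from low counts (from 1.89 to 6.3 in Control (median 4.64) and from 17.9 to 32.9 in DCVC (median 25.1)). Of immediate early genes 9 of 27 tested members rose and 9 fell, with a median log2 change of -0.01 (13, 7 and 0.24 under equal totals). NR4A2 and NR4A3, orphan nuclear receptors, ran from 0 to 6.85 in Control (median 3.97) and from 10.7 to 28.4 in DCVC (median 19.6) for NR4A2 and from 9.05 to 27.3 in Control (median 18.1) and from 41.9 to 207 in DCVC (median 80.7) for NR4A3, both higher in all DCVC libraries. JUN, an AP-1 subunit, rose by 0.60 ± 0.12, and DUSP2, a phosphatase of MAP kinases, fell by 2.07 ± 0.19. Of 8 tested metallothionein and zinc genes 0 rose and 4 fell (0 and 4 under equal totals), among them the zinc importer SLC39A14 (-1.65 ± 0.28).

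The 20 largest rises and 20 largest falls were taken among called genes without overlap whose mean over the 12 libraries was at least 50. TREML3P, a TREM-like pseudogene, ran from 0.947 to 6.09 in Control (median 2.64) and from 106 to 274 in DCVC (median 140.2), and ZNF365, a zinc finger gene, ran from 2.1 to 10.4 in Control (median 5.39) and from 64.2 to 158 in DCVC (median 129). TSPOAP1, which binds the translocator protein, ran from 31.6 to 58.8 in Control (median 49) and from 384 to 665 in DCVC (median 584). These 3 genes stood apart in all libraries (log2 changes 5.49 ± 0.37, 4.21 ± 0.36 and 3.46 ± 0.19). Further rises were OSGIN1, an oxidative stress-induced growth inhibitor (2.86 ± 0.15), SELPLG, the ligand of P-selectin (2.90 ± 0.42), PIR, the iron protein pirin (2.60 ± 0.08), PANX2, a pannexin channel (2.61 ± 0.19), KITLG, stem cell factor (2.54 ± 0.20), and TRIM16L, which has a near copy in TRIM16 (3.30 ± 0.26). Of the falls, IGFBP5, which binds insulin-like growth factors, ran from 64 to 273 in Control (median 92.3) and from 0 to 4.46 in DCVC (median 0). ADRA2B, an alpha-2 adrenergic receptor, ran from 279.6 to 689 in Control (median 348) and from 0 to 17.8 in DCVC (median 6.2). NES, the filament protein nestin, ran from 1984 to 3634 in Control (median 3206) and from 17.9 to 208 in DCVC (median 53.8) (log2 change -5.76 ± 0.48, adjusted p = 4.12e-10). RGS4, a brake on G protein signalling, F2R, the thrombin receptor, and PLVAP, a protein of endothelial vesicle diaphragms, changed by -5.27 ± 0.39, -4.32 ± 0.24 and -4.58 ± 0.32.

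By counts gained or lost, the genes at high levels differed from these. CAP1, a cyclase-associated actin regulator, was lowest at 428267 normalized counts in Control and highest at 324132 in DCVC (log2 change -0.89 ± 0.10, adjusted p = 2.66e-08). ACTB, beta-actin, fell by 0.57 ± 0.13 on the log2 scale, without overlap. PSAP, the precursor of saposins, P4HB, a protein disulfide isomerase, and ZMPSTE24, a protease of prelamin A, gained counts with log2 changes of 0.48 ± 0.07, 0.53 ± 0.11 and 0.47 ± 0.08. Summed over the tested genes, means fell by 4857078 normalized counts and rose by 1493124. Of genes with a mean over 1000 in the 12 libraries, 862 of 4080 rose and 1739 fell, with 39 and 293 at least 2-fold. Of those with a mean of 100 to 1000, 1864 of 6120 rose and 1854 fell, with 179 and 626 at least 2-fold. At a mean of 10 to 100, 1029 of 3337 rose and 815 fell, with 582 and 515 at least 2-fold. Most of the 855 rises of at least 2-fold were therefore of genes at low levels. Among 252 antisense genes 106 rose and 37 fell (median log2 change 0.37), and among 233 lincRNAs 93 rose and 47 fell (0.24), but the strand setting of the counting is not given in the sources used here, so reads of a gene and its antisense partner may not be told apart.

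The DCVC change was also read in DCVC_LPS minus LPS, which shares no library with DCVC minus Control. Libraries of the same letter still resembled each other across all 4 groups (lowest correlation of deviations from group means 0.134). The 2 sets of libraries may therefore not be independent. In DCVC_LPS minus LPS 4633 genes were raised (33.3%) and 5478 lowered (39.4%). Normalized totals were 29427331 ± 839114 (mean ± SD, n = 6) in LPS and 21831254 ± 235112 in DCVC_LPS, further apart than those of Control and DCVC. These shares and those of the interaction below are on the deposited scale, and their counts under equal totals are not given. Of the 855 genes raised at least 2-fold without LPS, 731 (85.5%) were raised with LPS, 43 lowered and 81 neither. Of the 1487 lowered at least 2-fold, 1245 (83.7%) were lowered, 26 raised and 216 neither. The medians of these genes were 1.49 without and 1.71 with LPS for the raised genes and -1.52 and -1.43 for the lowered, on the log2 scale. The interaction, the difference between the changes with and without LPS, was called for 6350 of all genes (45.7%), for 289 of the 855 (33.8%) and for 602 of the 1487 (40.5%). GCLM changed by 3.47 ± 0.10 with LPS against 3.18 ± 0.10 without. Genes with large differences were CCR7, with log2 changes of 2.85 ± 0.38 without LPS, from few reads, and -5.69 ± 0.38 with it, NR4A3, with log2 changes of 2.37 ± 0.32 without LPS and -5.24 ± 0.32 with it, CCL22 (1.97 ± 0.18 and -2.84 ± 0.18) and RGS4 (-5.27 ± 0.39 and -0.26 ± 0.39).

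**Figure D5:**
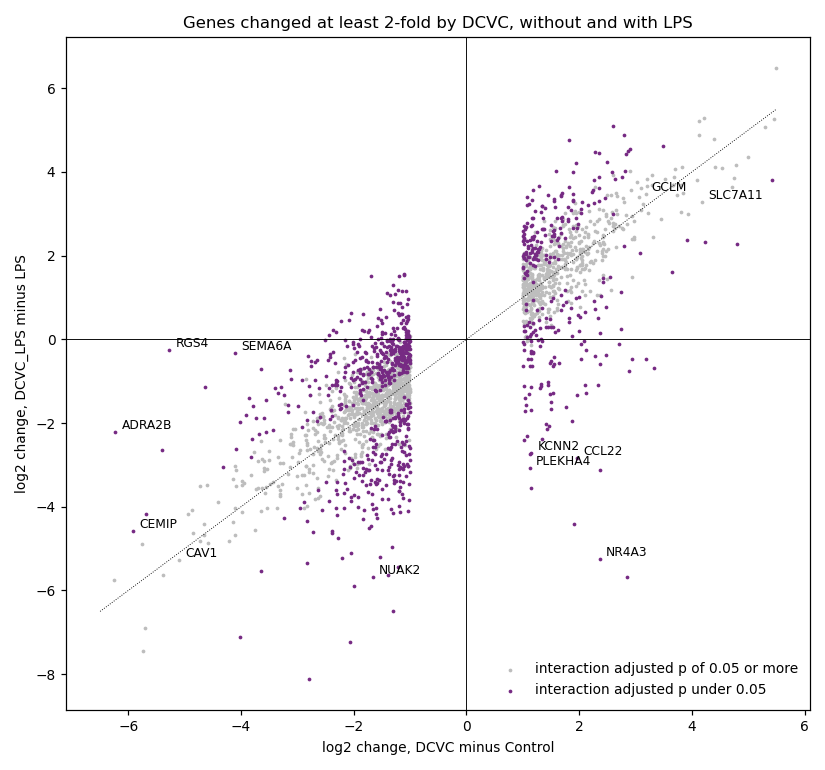
Log2 change in DCVC_LPS minus LPS (y axis) against that in DCVC minus Control (x axis) for the 855 genes raised and 1487 lowered at least 2-fold by DCVC; purple points have an interaction adjusted p under 0.05 and the dotted line marks equal changes. Most points lie in the quadrants of equal sign, with NR4A3, CCL22, KCNN2 and PLEKHA4 raised without LPS and lowered with it.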

How the data were processed

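Poly-A RNA of 24 libraries was measured, and per the labels' protocols cells received PMA, then medium or DCVC, then after a change of medium LPS where labelled. Doses of 1 and 10 µM DCVC that the protocols also name were not analysed here. Per the submitters' processing notes, which give no roles, build hg38 and DESeq2 1.24.0, featureCounts 1.6.1, STAR, R 3.6.0, MultiQC 0.9 and FastQC 0.11.5 were used. The annotation, strand setting and treatment of reads that fit more than 1 gene were not given in the sources used here. Deposited values are a signal: the authors divided each library's read counts by its own factor, as read from the values, since 100% of values above 0 were whole reads within 0.1 read. Of 58381 entries, 19595 (33.56%) without a name, with 0.99% of the values, were left out.

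A gene was tested where its mean over all 24 libraries reached 10 (13900 genes), as log2(value + 1) in limma 3.58.1 under R 4.3.3, with trended empirical Bayes, group means and 20 residual degrees of freedom, and p was adjusted by Benjamini-Hochberg over all tested genes. Changes are log2 changes ± SE on that scale, which understates changes of low genes, and adjusted p is limma's unless another tool is named. The fit was tested on simulated data, 13900 genes drawn for DCVC minus Control, in which 49 of 50 genes raised and 49 of 50 lowered 2-fold, 50 of 50 each way at 4-fold and 6 of 13700 unchanged genes were called. The simulated counts had the same dispersion for every gene, no letter effect and no shift of scale between groups. Few genes changed in them, all above a low level, unlike the real data. The simulation therefore checks the code and gives no error rate for these data. Alternatives were equal totals, edgeR 4.0.16 and DESeq2 1.42.0 on recovered reads, other pseudocounts and filters, the 12 libraries alone, a replicate block, pairs of letters and leaving out libraries.

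Whether the letters of the sample titles pair samples was checked on deviations from group means: the 6 same-letter Control and DCVC pairs correlated at 0.278 to 0.539, all over 0.1 (other letters -0.45 to 0.464). Among the other letters, A with B, C with D and E with F correlated at 0.273 to 0.464, and all remaining pairs negatively. Their own letter gave the best DCVC match for 4 of the 6 Control libraries. Whether the 6 libraries of a group are independent was not tested, and the block took the 6 letters as separate. The blocked fit stands beside a result where it changed a call or a count by over 1.5 times. The labels do not say what the letters mark.

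The comparison and gene lists were chosen with earlier results of these data known. Genes were named by a rule: the 20 largest rises and falls without overlap at a mean of at least 50, the 10 largest gains and losses of counts, up to 3 members per list and direction with the smallest adjusted p and the highest member not called, a fixed set of 21, and the 8 largest interactions at that mean, taken over Control and DCVC. Not all are described, and others were added from the lists as examples. Positions are GRCh38 gene bounds in GENCODE 29, where 13508 of 13900 symbols were found.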

Additional observations from a re-analysis of the deposited data

Results flagged for a closer look

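Each group of 6 values of the genes named with values was searched for a highest or lowest library that stood apart by Dixon's 95% critical value for 6 samples. It was found in 23 of 447 groups (5.15%), and chance alone gives about 1 in 20. The library was F in 14, E in 6 and B in 3 of them. In Control E this held for ADRA2B at 689 (next 425), DNAJB4 at 192 (next 151), PLVAP at 686 (next 491), PRTN3 at 884 (next 569) and SMAD3 at 1284 (next 1152) normalized counts. In Control F this held for CCNE2 at 1361 (next 609), CD14 at 4443 (next 2541), CDKN1A at 14059 (next 20328), EPHX1 at 451 (next 365), IL1B at 5906 (next 15940), PHGDH at 326 (next 205), TLR7 at 157 (next 99.4) and VCAN at 1548 (next 691) normalized counts. In DCVC B this held for ABCC4 at 317 (next 265), EEF1A1 at 266760 (next 302683) and PTGER2 at 14.7 (next 7.68) normalized counts. In DCVC E this held for FCER1G at 4590 (next 3539) normalized counts. In DCVC F this held for ALOX5 at 86.5 (next 49), COL10A1 at 105 (next 17.3), MCL1 at 14092 (next 16031), NES at 208 (next 81.8), PHLDA3 at 397 (next 253) and VCAN at 204 (next 88) normalized counts. No cause was tested.

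The change with DCVC differed between cells with and without LPS, by the interaction term of the limma fit, most for these 8 genes among those changed at least 2-fold by DCVC whose mean over the Control and DCVC libraries reached 50. CCR7, below that mean, had a larger interaction (-8.54 ± 0.53, adjusted p = 2.02e-11). The adjusted p of the 8 ran from 1.38e-12 to 0.000115. NR4A3, an orphan nuclear receptor, had an interaction of -7.61 on the log2 scale (adjusted p = 1.03e-11), from 11219 ± 1676 mean normalized counts in LPS to 306 ± 109 in DCVC_LPS, against 17.7 ± 7.47 in Control and 104 ± 65.9 in DCVC. CCL22 had -4.81, PLEKHA4, which binds membrane lipids, -4.19 and KCNN2, a calcium-activated potassium channel, -3.87, and these 3 genes were also raised without LPS and lowered with it. NUAK2, a kinase of the AMPK family, had -4.02, being lowered in both. RGS4 had 5.02, ADRA2B 4.01 and SEMA6A, a semaphorin, 3.77. LPS alone left RGS4 at 2.86, ADRA2B at 16.1 and SEMA6A at 22.4 mean normalized counts, against 255, 396 and 97.3 in Control.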

How the results depend on the processing

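Leaving out single libraries or letters gave 3338 to 3851 raised and 4018 to 4427 lowered genes, 816 to 868 raised and 1425 to 1528 lowered at least 2-fold, and 709 to 945 DCVC-changed genes with a called interaction (891 over all libraries). Equal totals gave 6412 raised, 2790 lowered and 1311 raised at least 2-fold. The letters E and F alone gave 2294 raised genes and 461 called interactions, from fewer samples. With no filter 1759 genes were raised at least 2-fold and with a mean of at least 50, which tests fewer genes, 360. No interaction was computed in the fit of the 12 libraries. With the letters as a replicate block, 4358 genes were raised and 5105 lowered, and of the 224 genes named with values 3 gained a call and none lost it; besides the list counts and genes given above, the block changed no other call of a named gene. NFE2L2 turned from -0.07 to 0.18 under equal totals (adjusted p = 0.0205), the 1 named gene that reversed; 7 others lost and 2 gained a call on that scale, and DESeq2 made that of MMP9. The call of BACH1 was lost in edgeR (adjusted p = 0.0794), with no filter (0.0651) and in the 12-library fit (0.0953), and that of CSF1R with no filter (0.0527). The letters A and B alone ended 5 and made 5 calls of named genes, C and D 2 and 3, and E and F 17 and 0. A limit is the scale. A log2 change in DCVC minus Control within 0.25 of 0 can lose or change its direction between the deposited scale and equal totals. Which scale is nearer the RNA per cell was not tested. Few reads, as for AKR1B10, TLR5 and CCR7 in Control, limit folds to bounds or rough values.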

Other observations

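Smaller gene groups not described above moved both ways. Of MHC class II presentation genes 4 of 10 tested members rose and 2 fell, with a median log2 change of 0.32 (6, 2 and 0.57 under equal totals). HLA-DMA, which loads peptides onto class II molecules, ran from 37.8 to 64.7 in Control (median 53) and from 107 to 121 in DCVC (median 116) without overlap (log2 change 1.19 ± 0.17, adjusted p = 2.44e-06), although reads of HLA genes can be split between near copies. Of LXR and cholesterol efflux genes 3 of 10 tested members rose and 2 fell, with a median log2 change of -0.06 (5, 1 and 0.19 under equal totals), and with the letters as a replicate block 3 rose and 4 fell. PLTP, the phospholipid transfer protein, ran from 252 to 378 in Control (median 281) and from 443 to 556 in DCVC (median 489) without overlap (log2 change 0.71 ± 0.12, adjusted p = 1.99e-05). Of ribosome biogenesis genes 3 of 25 tested members rose and 4 fell, with a median log2 change of 0.02 (13, 3 and 0.27 under equal totals), a balance that moved with the scale, and with the replicate block 5 rose and 5 fell. FBL, the methyltransferase of ribosomal RNA, changed by -0.68 ± 0.08 on the log2 scale and NPM1, nucleophosmin, by -0.49 ± 0.06.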
